A study of Mus musculus with 16 samples.

Results

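The protein genes of the mitochondrial ribosome were followed in cultured mouse cortical neurons carrying a short hairpin RNA (shRNA), either against c-Fos or a control, that were depolarised with KCl. The members are the genes whose symbol on the array platform starts with Mrpl or Mrps followed by a number, measured by a probe set that the platform assigns to 1 gene. This gave 76 of the 18193 genes on such probe sets, 47 named for the large subunit (Mrpl) and 29 for the small subunit (Mrps). Counts by subunit go by these names, which do not always give the place of the protein. All 76 were among the 13915 genes bright enough to be tested. Mrpl30 and Mrpl53 were measured only by probe sets shared with another gene and were left out.

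The mitochondrial ribosome translates the few mRNAs of the mitochondrial genome, which encode core subunits of the respiratory chain and of ATP synthase. Its RNAs come from the mitochondrial genome, but all of its proteins are encoded in the nucleus, made in the cytosol and imported. Many have a bacterial counterpart and others were added to the ribosome within mitochondria, so the family mixes conserved and mitochondria-specific subunits. Neurons use mitochondrial ATP to pump ions back after firing.

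Cortical cells were taken from C57BL/6 mouse embryos at embryonic day 16.5 and grown as dissociated cultures. On day 5 in vitro they were exposed for 6 h, with polybrene at 6 µg per ml, to a lentivirus. It expressed an shRNA against c-Fos, the subunit of the AP-1 transcription factor encoded by Fos, or an shRNA against firefly luciferase, which the cells do not contain. On day 7 the cultures were silenced and given KCl, which depolarises neurons and opens their calcium channels, before total RNA was hybridised as 10 µg of labelled cDNA to 1-colour Affymetrix arrays of the mouse genome. The 8 groups were c-Fos shRNA with 0, 1, 3 and 6 h of KCl and control shRNA with 0, 1, 3 and 6 h of KCl, with 2 arrays each and 16 in all. Every culture therefore had virus, and the 0 h cultures were silenced without KCl. Each target had 1 shRNA, so effects of less Fos and other effects of that shRNA cannot be told apart. Arrays of 1 group are called biological replicates in the labels, which do not name separate dissections. The p-values therefore measure only how far these arrays spread.

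Values are deposited linear intensities, and a probe set's intensity is compared between arrays but not with that of another probe set. Changes are differences in log2(intensity + 16) after quantile normalization, in log2 units with a standard error, and they understate the change of dim genes. A gene is called higher or lower when limma's Benjamini-Hochberg adjusted p over all tested genes is under 0.05. Members given array values were mostly chosen for a call and for arrays that do not overlap. Non-overlap was thus a condition of being named and adds no support to the calls. Fos, the check of the labels, had an intensity of 118 and 152 with c-Fos shRNA at 0 h, then 7728 and 9623 (1 h), 3763 and 4297 (3 h) and 3142 and 3340 (6 h). With control shRNA the values were 261 and 232 at 0 h, then 14633 and 14719 (1 h), 13638 and 13308 (3 h) and 11960 and 11898 (6 h). Fos was lower in both c-Fos shRNA arrays than in both control shRNA arrays at each time, and it was called lower at all 4, by −0.77, −0.75, −1.74 and −1.85.

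The median level of the family was lower at each later time of KCl in both arms. For each array the median over the 76 members was taken of the difference in log2 level from the mean of the control shRNA 0 h arrays. With c-Fos shRNA this median was −0.05 and −0.06 at 0 h, then −0.17 and −0.12 (1 h), −0.35 and −0.35 (3 h) and −0.48 and −0.44 (6 h). With control shRNA it was 0.02 and −0.02 at 0 h, then −0.10 and −0.09 (1 h), −0.15 and −0.20 (3 h) and −0.31 and −0.30 (6 h). Both arms are set against the control shRNA 0 h arrays, so the c-Fos shRNA values also hold the difference between the shRNAs. Changes within each arm are given below. Arrays of successive times did not overlap within either arm. The same median over all 13915 tested genes stayed between −0.10 and 0.04 in all 16 arrays. In bulk cultures fewer cells of a type and less RNA per cell cannot be told apart.

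**Figure D1:**
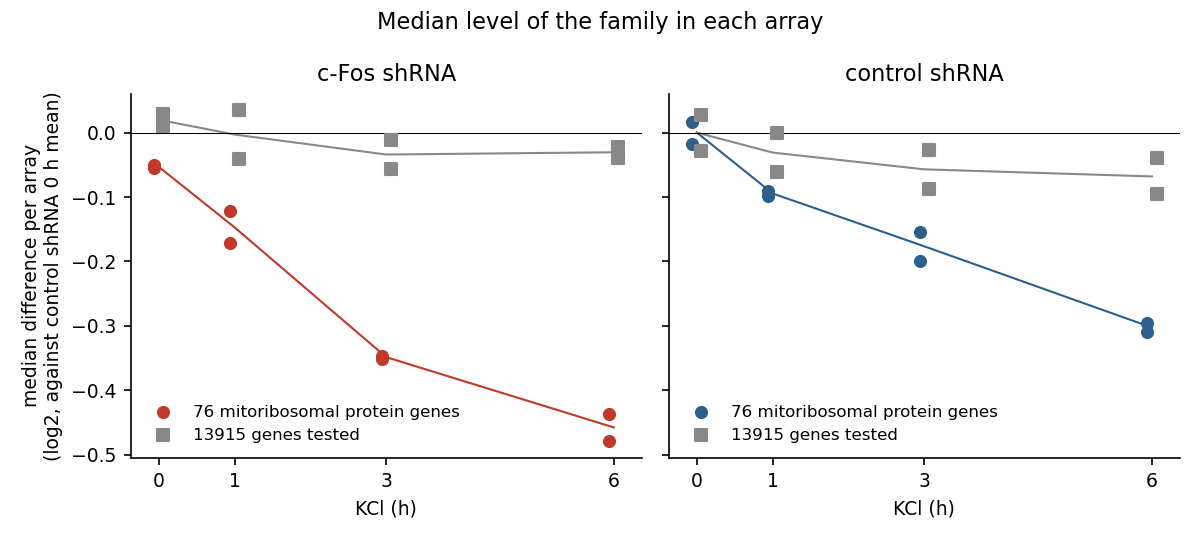
Median difference in log2 level from the control shRNA 0 h mean (y axis) against hours of KCl (x axis), 1 point per array and a line through the mean of each pair of arrays, for the 76 members (coloured) and all 13915 genes tested (grey). The members' points lie at −0.48 and −0.44 at 6 h with c-Fos shRNA and at −0.31 and −0.30 at 6 h with control shRNA, while the grey points stay near 0. The c-Fos shRNA points also hold the difference between the shRNAs.

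At 1 h few members had moved. With c-Fos shRNA 2 members were called lower and 0 higher, where 1.4% of all tested genes were called lower and 1.96% higher (3.36% in all). With control shRNA 1 member was called lower and 0 higher, where 0.826% of all tested genes were called lower and 2.29% higher (3.12% in all), and 4 members were called lower with the replicate number as a block, where 3.64% of all tested genes were (8.15% in all). Mrpl44, a large-subunit protein with no bacterial ribosomal counterpart and a fold related to RNase III, was called in both arms. It had 905 and 933 at 1 h against 1016 and 1205 at 0 h with c-Fos shRNA, and 1252 and 1170 at 1 h against 1486 and 1445 at 0 h with control shRNA. The arrays did not overlap in either arm, and the changes were −0.31 ± 0.08 (SE, adjusted p = 0.0451) with c-Fos shRNA and −0.35 ± 0.08 (adjusted p = 0.0267) with control shRNA. Mrps2, the counterpart of bacterial ribosomal protein S2 in the small subunit, had 1013 and 1230 at 1 h against 1534 and 1740 at 0 h with c-Fos shRNA, where it was called at −0.60 ± 0.11 (adjusted p = 0.00712). Leaving out 1 of the 4 arrays compared ended the Mrpl44 call whichever array it was, and ended the Mrps2 call for either of c-Fos shRNA 0 h replicate 2 and c-Fos shRNA 1 h replicate 1. Without c-Fos shRNA 0 h replicate 2 no member was called at 1 h with c-Fos shRNA, and without any of the others 1 was. None was called with control shRNA without any 1 of its 4 arrays.

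By 3 h many members of both subunits were lower. With c-Fos shRNA 38 members were called lower and 1 higher, with a median change of −0.22 over the 76, and with control shRNA 31 were called lower and 1 higher, with a median of −0.18. Of all tested genes 18.3% were called lower and 9.92% higher with c-Fos shRNA (28.2% in all), and 19.3% lower and 11% higher with control shRNA (30.3% in all), with medians of −0.06 and −0.05. The same 27 members were called lower in both arms, where 14.4% of tested genes were. The large subunit had 26 of its 47 members called lower with c-Fos shRNA and 21 of 47 with control shRNA, and the small subunit had 12 of 29 with c-Fos shRNA and 10 of 29 with control shRNA. Without c-Fos shRNA 3 h replicate 1 the count of called members with c-Fos shRNA was 22, and without control shRNA 3 h replicate 2 that with control shRNA was 21.

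Among the largest falls at 3 h were small-subunit genes. Mrps2 had 630 and 775 at 3 h against 1534 and 1740 at 0 h with c-Fos shRNA, and 784 and 811 at 3 h against 1849 and 1932 at 0 h with control shRNA. Both 3 h arrays of each arm lay below every 0 h array of that arm by a wide margin. The changes were −1.18 ± 0.11 (adjusted p = 5.32e-06, 2.27-fold lower) with c-Fos shRNA and −1.22 ± 0.11 (adjusted p = 3.6e-06, 2.33-fold lower) with control shRNA. Mrps31, a small-subunit protein specific to mitochondria, had 744 and 851 at 3 h against 1592 and 1754 at 0 h with c-Fos shRNA, and 1243 and 1151 at 3 h against 2243 and 1878 at 0 h with control shRNA. It fell by 1.04 ± 0.10 (adjusted p = 9.57e-06) with c-Fos shRNA and by 0.78 ± 0.10 (adjusted p = 8.03e-05) with control shRNA, with no overlap of arrays in either arm. Mrpl44 had 703 and 689 at 3 h against 1016 and 1205 at 0 h with c-Fos shRNA, and 729 and 734 at 3 h against 1486 and 1445 at 0 h with control shRNA. The Mrpl44 changes were −0.62 ± 0.08 (adjusted p = 5.92e-05) and −0.98 ± 0.08 (adjusted p = 1.4e-06, 1.97-fold lower), again without overlap. Mrps16, the counterpart of bacterial S16, had 967 and 947 at 3 h against 1720 and 1774 at 0 h with c-Fos shRNA, and 1018 and 1011 at 3 h against 1667 and 1666 at 0 h with control shRNA. Its arrays were apart in both arms, and it changed by −0.85 ± 0.09 (adjusted p = 1.22e-05) with c-Fos shRNA and −0.70 ± 0.09 (adjusted p = 4.82e-05) with control shRNA. Mrpl55 and Mrpl49 of the large subunit were among the largest falls of 1 arm. Mrpl55, a mitochondria-specific protein, had 239 and 329 at 3 h against 415 and 507 at 0 h with c-Fos shRNA (−0.63 ± 0.17, adjusted p = 0.0152). Mrpl49, also mitochondria-specific, had 1335 and 1533 at 3 h against 1977 and 2374 at 0 h with control shRNA (−0.61 ± 0.18, adjusted p = 0.0208). With the mean of a gene's probe sets in place of the brightest, the c-Fos shRNA changes of Mrps2 and Mrps31 were smaller, at −0.75 and −0.66, and still called. The Mrpl55 call was lost without c-Fos shRNA 0 h replicate 2 or 3 h replicate 1, and the Mrpl49 call without control shRNA 0 h replicate 2 or 3 h replicate 1.

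At 6 h most members were lower. With c-Fos shRNA 44 members were called lower and 6 higher, and with control shRNA 47 were called lower and 6 higher. Of the members 57.9% and 61.8% were thus called lower, where 24.9% and 27.3% of all tested genes were. Calls in either direction took 41% of all tested genes with c-Fos shRNA, 16.1% being higher, and 44.1% with control shRNA, 16.7% being higher. The median change over the 76 members was −0.30 in the c-Fos shRNA arm and −0.32 in the control shRNA arm, against −0.06 and −0.07 over all tested genes. The same 39 members were called lower in both arms, where 20.5% of tested genes were, and 0 members were called in opposite directions. Most falls were modest. Members called and lower by at least 0.5 numbered 22 in the c-Fos shRNA arm and 23 in the control shRNA arm, where 15.2% and 17.3% of tested genes were. Across the 76 members the changes of the 2 arms had a Pearson r of 0.89 at 3 h and 0.87 at 6 h, as a description of genes that share arrays within an arm.

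Members named for both subunits were called lower at 6 h. Mrps18a and Mrps36, whose places are given below, are counted with the small subunit by name. The large subunit had 27 of 47 members called lower and 4 higher with c-Fos shRNA, with a median of −0.31, and 31 lower and 3 higher with control shRNA, with a median of −0.33. The small subunit had 17 of 29 called lower and 2 higher with c-Fos shRNA, with a median of −0.29, and 16 lower and 3 higher with control shRNA, with a median of −0.26. A difference between the subunits was not tested.

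**Figure D2:**
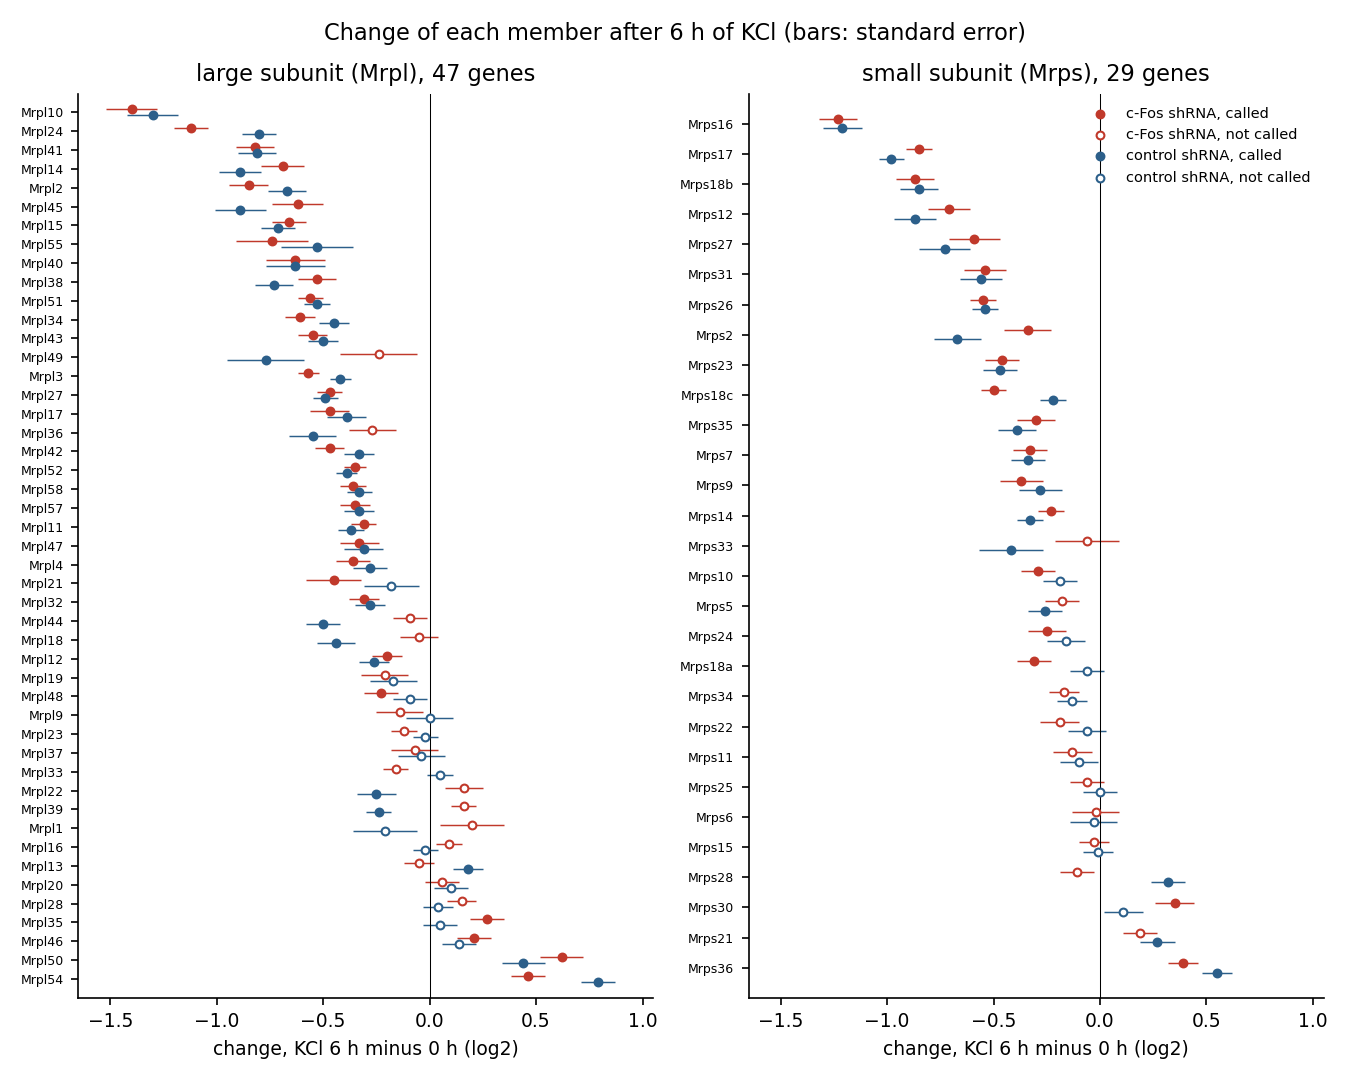
Change in log2 level after 6 h of KCl minus 0 h (x axis) for each of the 47 Mrpl and 29 Mrps members (y axis), with c-Fos shRNA in red above control shRNA in blue, filled where called and open where not, with standard errors as bars. Mrpl10 and Mrps16 lie farthest to the left, and Mrpl54, Mrpl50 and Mrps36 farthest to the right.

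The 5 promoters printed here are those of Mrpl10, the member with the largest fall at 6 h in both arms, of Mrpl45, Mrpl17 and Mrps18b, which fell in both arms and hold motif letters linked to mitochondrial genes, and of Mrps36, which rose in both arms. Each is the 250 bases before the gene's start in RefSeq's annotation of mouse build GRCm38.p6, 5′ to 3′ on the gene's strand. Capitals mark letters of the nuclear respiratory factor NRF1 (GCGCA and GCGC with any 1 base between them) or of the ETS family (CCGGAAG), on either strand. The intervals are chr11:97041332-97041581 (+) for Mrpl10, chr11:97315466-97315715 (+) for Mrpl45, chr7:105811088-105811337 (−) for Mrpl17, chr17:35916441-35916690 (−) for Mrps18b and chr13:100744660-100744909 (−) for Mrps36.
Mrpl10: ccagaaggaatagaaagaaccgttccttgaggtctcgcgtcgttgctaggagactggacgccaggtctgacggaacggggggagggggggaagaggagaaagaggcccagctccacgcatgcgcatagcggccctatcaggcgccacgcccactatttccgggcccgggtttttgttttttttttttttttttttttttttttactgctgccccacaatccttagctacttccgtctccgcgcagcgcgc
Mrpl45: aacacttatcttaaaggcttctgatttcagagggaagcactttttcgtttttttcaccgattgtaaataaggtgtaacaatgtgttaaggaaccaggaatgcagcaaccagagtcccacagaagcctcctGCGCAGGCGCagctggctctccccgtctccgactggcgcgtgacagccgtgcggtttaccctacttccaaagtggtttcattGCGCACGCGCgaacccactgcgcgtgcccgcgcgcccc
Mrpl17: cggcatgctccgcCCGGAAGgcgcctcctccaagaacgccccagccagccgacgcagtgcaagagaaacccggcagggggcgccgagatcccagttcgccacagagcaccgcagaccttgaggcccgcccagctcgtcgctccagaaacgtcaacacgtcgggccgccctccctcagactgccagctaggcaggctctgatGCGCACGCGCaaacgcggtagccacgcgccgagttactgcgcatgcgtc
Mrps18b: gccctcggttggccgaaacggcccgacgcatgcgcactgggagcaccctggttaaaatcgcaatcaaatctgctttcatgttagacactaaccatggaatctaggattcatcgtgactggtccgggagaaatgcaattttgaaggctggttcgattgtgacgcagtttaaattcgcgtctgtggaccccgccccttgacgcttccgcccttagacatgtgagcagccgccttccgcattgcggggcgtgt
Mrps36: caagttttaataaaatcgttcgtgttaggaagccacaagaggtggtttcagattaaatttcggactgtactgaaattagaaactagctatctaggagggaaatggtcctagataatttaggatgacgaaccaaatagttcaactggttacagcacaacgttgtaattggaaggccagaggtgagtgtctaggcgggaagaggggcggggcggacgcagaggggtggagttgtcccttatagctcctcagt

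Mrpl45 held NRF1 letters starting 120 and 38 bases before its start and a further match starting at base 16 after it. Mrpl17 held NRF1 letters 49 bases and ETS letters 237 bases before its start. The ETS letters of Mrps18b began at base 44 after its start and are outside the printed run. Mrpl10 and Mrps36 held neither. The motifs were searched on both strands of windows from 250 bases before to 50 after each start, with 67 of the 76 members and 27025 genes in the table. NRF1 letters were in 12 of 67 members (17.9%) and in 5.19% of all genes. ETS letters were in 25 of 67 members (37.3%) and in 9.93% of all genes, and the letters AAGATGGCG of YY1, a zinc-finger factor, in 8 members (11.9%) and in 1.64% of all genes. The AP-1 letters TGANTCA were in 3 members (4.48%) and in 8.97% of all genes, and the cyclic AMP response element TGACGTCA in 2 members (2.99%) and in 2.03% of all genes. No match of one motif overlapped a match of another in these members. Of the members called lower in both arms at 6 h, 8 of 35 held NRF1 letters and 16 of 35 ETS letters, against 4 of 32 and 9 of 32 of the other members. In the same split YY1 letters were in 2 of 35 against 6 of 32, AP-1 letters in 0 of 35 against 3 of 32, and the cyclic AMP response element in 0 of 35 against 2 of 32. A match is only letters in a window, and no binding was measured.

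Mrpl10, whose protein anchors the stalk of the large subunit that recruits translation factors, had 469 and 586 at 6 h against 1372 and 1516 at 0 h with c-Fos shRNA. With control shRNA it had 499 and 671 at 6 h against 1495 and 1489 at 0 h. The 6 h arrays lay far below the 0 h arrays in both arms. The changes were −1.40 ± 0.12 (adjusted p = 3.15e-06, 2.63-fold lower) with c-Fos shRNA and −1.30 ± 0.12 (adjusted p = 4.28e-06, 2.46-fold lower) with control shRNA. Mrpl12, the other protein of the stalk, had smaller changes of −0.20 (adjusted p = 0.027) and −0.26 (adjusted p = 0.00618).

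Mrps16 had 651 and 794 at 6 h against 1720 and 1774 at 0 h with c-Fos shRNA, and 635 and 755 at 6 h against 1667 and 1666 at 0 h with control shRNA. The pairs of arrays were far apart in both arms. The changes were −1.23 ± 0.09 (adjusted p = 5.29e-07, 2.34-fold lower) and −1.21 ± 0.09 (adjusted p = 4.08e-07, 2.31-fold lower). Mrpl24, the counterpart of bacterial L24, had 916 and 967 at 6 h against 2007 and 2127 at 0 h with c-Fos shRNA, and 1022 and 1125 at 6 h against 1870 and 1921 at 0 h with control shRNA. It fell by 1.12 ± 0.08 (adjusted p = 5.2e-07, 2.17-fold lower) with c-Fos shRNA and by 0.80 ± 0.08 (adjusted p = 4.79e-06, 1.74-fold lower) with control shRNA, without overlap. Only Mrpl10, Mrps16 and Mrpl24 were more than 2-fold lower with c-Fos shRNA, and only Mrpl10 and Mrps16 with control shRNA.

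Further large-subunit members fell in both arms. Mrpl2, the counterpart of bacterial L2 near the peptidyl-transferase centre, had 673 and 716 at 6 h against 1314 and 1289 at 0 h with c-Fos shRNA, and 692 and 742 at 6 h against 1238 and 1136 at 0 h with control shRNA. Its changes were −0.85 ± 0.09 (adjusted p = 1.25e-05) and −0.67 ± 0.09 (adjusted p = 6.18e-05). The Mrpl2 arrays of 6 h and 0 h were apart in both arms, as were those of the next 2 genes. Mrpl14, the counterpart of bacterial L14, had 406 and 488 at 6 h against 744 and 776 at 0 h with c-Fos shRNA, and 424 and 463 at 6 h against 878 and 865 at 0 h with control shRNA. It changed by −0.69 ± 0.10 (adjusted p = 0.000165) and −0.89 ± 0.10 (adjusted p = 1.77e-05). Mrpl45, which in the human mitoribosome contacts the inner membrane near the exit of the peptide tunnel, had 863 and 808 at 6 h against 1372 and 1264 at 0 h with c-Fos shRNA, and 689 and 622 at 6 h against 1282 and 1250 at 0 h with control shRNA. Its changes were −0.62 ± 0.12 (adjusted p = 0.00147) and −0.89 ± 0.12 (adjusted p = 8.65e-05). Mrpl41, a mitochondria-specific subunit, changed by −0.82 with c-Fos shRNA and by −0.81 with control shRNA. Mrpl58, a peptidyl-tRNA hydrolase that frees stalled ribosomes, changed by −0.36 (adjusted p = 0.00042) and −0.33 (adjusted p = 0.000669).

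In the small subunit, Mrps17, the counterpart of bacterial S17, had 2527 and 2739 at 6 h against 4607 and 4841 at 0 h with c-Fos shRNA, and 2226 and 2441 at 6 h against 4530 and 4457 at 0 h with control shRNA. The arrays were apart in both arms, and the changes were −0.85 ± 0.06 (adjusted p = 4.3e-07) and −0.98 ± 0.06 (adjusted p = 9.19e-08). Mrps12, the counterpart of bacterial S12 in the decoding centre, changed by −0.71 ± 0.10 (adjusted p = 0.000127) with c-Fos shRNA and −0.87 ± 0.10 (adjusted p = 2.26e-05) with control shRNA. Mammals have 3 relatives of bacterial S18. Mrps18b had 783 and 963 at 6 h against 1530 and 1710 at 0 h with c-Fos shRNA, and 891 and 927 at 6 h against 1641 and 1748 at 0 h with control shRNA. Mrps18b changed by −0.87 ± 0.09 (adjusted p = 1.3e-05) and −0.85 ± 0.09 (adjusted p = 1.28e-05). Mrps18c changed by −0.50 (adjusted p = 4.65e-05) with c-Fos shRNA and −0.22 (adjusted p = 0.0128) with control shRNA. Mrps18a, whose protein sits in the large subunit of the human mitoribosome despite its name, changed by −0.31 (adjusted p = 0.00675) with c-Fos shRNA and was not called with control shRNA at −0.06.

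At 6 h 3 members, Mrpl54, Mrps36 and Mrpl50, rose in both arms, where 12.2% of tested genes did. Mrpl54, a mitochondria-specific protein of the large subunit, had 1107 and 1125 at 6 h against 808 and 853 at 0 h with c-Fos shRNA, and 1129 and 1084 at 6 h against 668 and 647 at 0 h with control shRNA. The 6 h arrays were above the 0 h arrays in both arms, and the changes were 0.46 ± 0.08 (adjusted p = 0.000538, 1.37-fold) and 0.79 ± 0.08 (adjusted p = 6.14e-06, 1.73-fold). The second probe set of Mrpl54 (mean intensity 37.8) was too dim to be tested. Averaging Mrpl54 with it gave −0.10 at 6 h and 0.03 at 3 h in the c-Fos shRNA arm, neither called. It also ended the 3 h call with control shRNA. Mrpl54 was also the 1 member called higher at 3 h in each arm, by 0.25 (adjusted p = 0.0295) and 0.40 (adjusted p = 0.00187). Without c-Fos shRNA 0 h replicate 1, 0 h replicate 2 or 3 h replicate 1 its 3 h call with c-Fos shRNA was lost. Mrps36, now known as a subunit of the 2-oxoglutarate dehydrogenase complex of the citric acid cycle rather than of the ribosome, had 1904 and 2067 at 6 h against 1475 and 1556 at 0 h with c-Fos shRNA, and 1996 and 1948 at 6 h against 1303 and 1366 at 0 h with control shRNA. It rose by 0.39 ± 0.07 (adjusted p = 0.000636, 1.31-fold) with c-Fos shRNA and by 0.55 ± 0.07 (adjusted p = 3.89e-05, 1.46-fold) with control shRNA, with no overlap. Mrpl50, a mitochondria-specific large-subunit protein, had 2208 and 2327 at 6 h against 1608 and 1377 at 0 h with c-Fos shRNA, and 2114 and 2285 at 6 h against 1489 and 1725 at 0 h with control shRNA. Its changes were 0.62 ± 0.10 (adjusted p = 0.000425) and 0.44 ± 0.10 (adjusted p = 0.00404). A similarly bright second probe set of Mrpl50 gave 0.13 in the c-Fos shRNA arm and −0.02 in the control shRNA arm, neither called. The mean of its probe sets gave 0.38, still called, and 0.21 (adjusted p = 0.0617).

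The other members called higher at 6 h were called in 1 arm each. With c-Fos shRNA, Mrps30 had 1270 and 1362 at 6 h against 971 and 1114 at 0 h (0.35, adjusted p = 0.00742). Mrpl35, the counterpart of bacterial L35, had 2392 and 2497 at 6 h against 2037 and 1994 at 0 h (0.27, adjusted p = 0.0192), and Mrpl46 rose by 0.21 (adjusted p = 0.042). These arrays did not overlap. With control shRNA, Mrps28 had 1319 and 1367 at 6 h against 1135 and 1021 at 0 h (0.32, adjusted p = 0.00712). Mrps21, the counterpart of bacterial S21, had 1822 and 2051 at 6 h against 1567 and 1616 at 0 h (0.27, adjusted p = 0.0124), and Mrpl13 rose by 0.18 (adjusted p = 0.041). Again no 6 h array was as low as a 0 h array. In the other arm Mrps30 had 0.11, Mrpl35 0.05 and Mrpl46 0.14, and Mrps28 had −0.11, Mrps21 0.19 and Mrpl13 −0.05, none of them called. Without c-Fos shRNA 0 h replicate 1 the Mrps30 call was lost, and without control shRNA 0 h replicate 2 that of Mrps28. The Mrpl35 call was lost without c-Fos shRNA 0 h replicate 2, 6 h replicate 1 or 6 h replicate 2, and the Mrps21 call without control shRNA 0 h replicate 1 or 6 h replicate 2. Under the mean of a gene's probe sets Mrpl35 had −0.17 and Mrps21 −0.04, neither called.

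Across the 6 KCl comparisons 13 members were called in none, where 43.3% of all tested genes were called in none. The 13 were Mrpl1, Mrpl9, Mrpl16, Mrpl20, Mrpl23, Mrpl28, Mrpl33, Mrpl37, Mrps6, Mrps11, Mrps15, Mrps22 and Mrps25. For Mrpl28, Mrpl37, Mrps15 and Mrps25 the 6 h changes were 0.15, −0.07, −0.03 and −0.06 with c-Fos shRNA and 0.04, −0.04, −0.01 and 0.00 with control shRNA.

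The members did not share 1 time course. Arrays of 6 h were compared with those of 3 h in each arm, a comparison added after the data were seen. With c-Fos shRNA 8 members were called higher and 16 lower, where 8.98% and 8.19% of all tested genes were (17.2% in all), and 38 were called with the replicate block, where 33.7% of all tested genes were. With control shRNA 4 were called higher and 18 lower, where 7.97% and 9% were (17% in all). Mrps2 had 1219 and 1341 at 6 h against 630 and 775 at 3 h with c-Fos shRNA, and 1112 and 1244 at 6 h against 784 and 811 at 3 h with control shRNA. It was called higher at 6 h than at 3 h, by 0.84 ± 0.11 (adjusted p = 0.000351) and 0.55 ± 0.11 (adjusted p = 0.00394). All 4 of its 6 h arrays remained below the 0 h arrays of their arm, by −0.34 (adjusted p = 0.0214) with c-Fos shRNA and −0.67 (adjusted p = 0.00026) with control shRNA. Mrpl44 had 1002 and 1057 at 6 h against 703 and 689 at 3 h with c-Fos shRNA, and 997 and 1026 at 6 h against 729 and 734 at 3 h with control shRNA. It was higher by 0.53 ± 0.08 (adjusted p = 0.000702) and 0.48 ± 0.08 (adjusted p = 0.00127). Mrps31 had 1130 and 1152 at 6 h against 744 and 851 at 3 h with c-Fos shRNA, a change of 0.50 ± 0.10 (adjusted p = 0.0052; 0.24 under the mean of its probe sets, adjusted p = 0.239), and 1371 and 1398 at 6 h against 1243 and 1151 at 3 h with control shRNA, where 0.22 was not called. These 3 genes had also been among the lowest at 3 h against 0 h, and both comparisons use the same 3 h arrays.

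Other members fell late. Mrpl24 had 1727 and 1777 at 3 h with c-Fos shRNA and 1682 and 1759 with control shRNA, so that most of its fall lay between 3 and 6 h. Against 3 h it changed at 6 h by −0.89 ± 0.08 (adjusted p = 5.11e-05) with c-Fos shRNA and −0.63 ± 0.08 (adjusted p = 0.000247) with control shRNA. Its 3 h change against 0 h was −0.23 (adjusted p = 0.0436) with c-Fos shRNA and −0.16, not called, with control shRNA. Mrpl10, with 847 and 948 at 3 h with c-Fos shRNA and 954 and 1135 with control shRNA, fell in both intervals, by 0.67 and 0.51 at 3 h against 0 h and by 0.73 and 0.79 at 6 h against 3 h. The 3 h call of Mrpl10 with control shRNA was lost without control shRNA 3 h replicate 1. Mrps27, an RNA-binding protein of the small subunit, had 337 and 411 at 6 h against 469 and 561 at 3 h with c-Fos shRNA (−0.43, adjusted p = 0.0262), and 298 and 336 at 6 h against 466 and 509 at 3 h with control shRNA (−0.58, adjusted p = 0.00553). Mrpl38, a mitochondria-specific large-subunit protein, had 310 and 359 at 6 h against 509 and 522 at 3 h with control shRNA (−0.59, adjusted p = 0.00127), and had −0.31 with c-Fos shRNA. Under the mean of its probe sets the control shRNA value of Mrpl38 was −0.11 (adjusted p = 0.679), which ended the call. Mrpl14 had 406 and 488 at 6 h against 611 and 583 at 3 h with c-Fos shRNA (−0.39, adjusted p = 0.019). None of these pairs of arrays overlapped, which the choice of genes required. In the other direction, Mrpl39, a mitochondria-specific large-subunit protein, and Mrpl22, the counterpart of bacterial L22, were called higher with c-Fos shRNA. Mrpl39 had 4411 and 4580 at 6 h against 3549 and 3631 at 3 h (0.34, adjusted p = 0.00236). Mrpl22 had 2547 and 2626 at 6 h against 2013 and 1954 at 3 h (0.37, adjusted p = 0.0142). With control shRNA their changes were 0.02 and 0.14, neither called.

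Leaving out 1 array moved these counts. With c-Fos shRNA the count of members called at 6 h against 3 h was 11 without 3 h replicate 1 or 3 h replicate 2, 8 without 6 h replicate 1 and 14 without 6 h replicate 2. With control shRNA it was 13 without 3 h replicate 1 or 6 h replicate 1 and 14 without 3 h replicate 2. The call of Mrps31 with c-Fos shRNA was lost without c-Fos shRNA 3 h replicate 1. The call of Mrpl14 with c-Fos shRNA was lost without 3 h replicate 1, 3 h replicate 2 or 6 h replicate 1, and that of Mrpl22 without 3 h replicate 2, 6 h replicate 1 or 6 h replicate 2. That of Mrps27 was lost without 3 h replicate 2, 6 h replicate 1 or 6 h replicate 2 with c-Fos shRNA, and without 3 h replicate 2 or 6 h replicate 1 with control shRNA. The call of Mrps2 at 6 h against 0 h with c-Fos shRNA was lost without 0 h replicate 2, 6 h replicate 1 or 6 h replicate 2 and under the mean of its probe sets (−0.20), which gave 0.55, still called, for 6 h against 3 h.

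**Figure D3:**
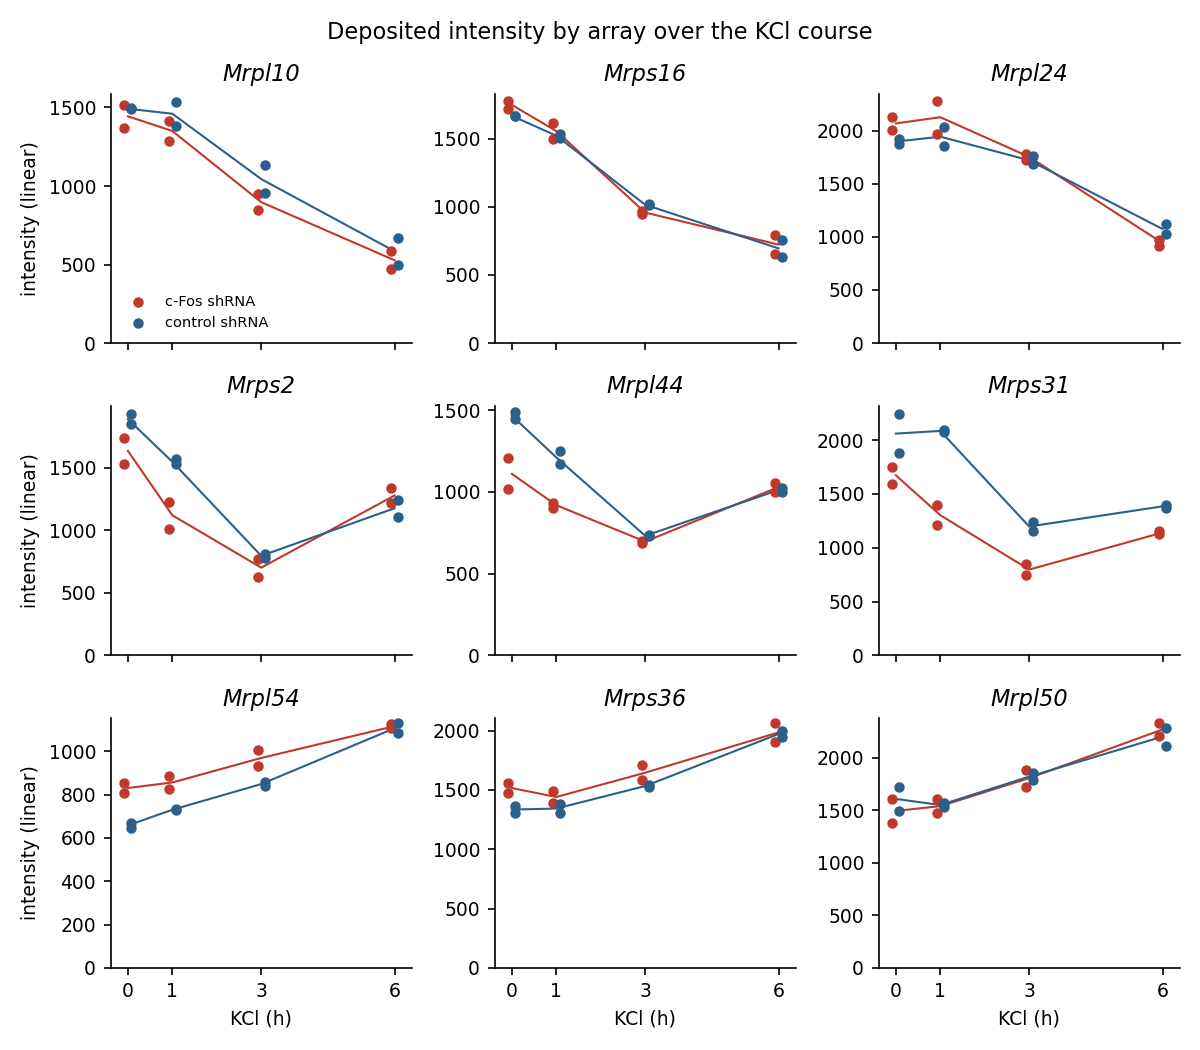
Deposited linear intensity (y axis, from 0) against hours of KCl (x axis) for 9 members, with 1 point per array and lines through the mean of 2 arrays, c-Fos shRNA in red and control shRNA in blue. Mrpl10, Mrps16 and Mrpl24 end at their lowest at 6 h, Mrps2, Mrpl44 and Mrps31 are lowest at 3 h, and Mrpl54, Mrps36 and Mrpl50 end at their highest at 6 h.

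The design also allows the arms to be compared at each time. Members were called in both directions, and a small set differed at every time. At 0 h 13 members were called lower and 3 higher, where 10.3% and 12% of all tested genes were (22.3% in all). At 1 h 14 were called lower and 2 higher, where 10% and 10.8% were (20.8% in all). At 3 h 18 were called lower and 2 higher, where 10.9% and 12.4% were (23.3% in all), and at 6 h 16 lower and 4 higher, where 10.4% and 13.4% were (23.8% in all). On the average over times 31 were called lower and 10 higher, where 22.7% and 25.2% were (47.9% in all). The median over the 76 members ran from −0.11 at 3 h to −0.02 at 1 h, and was −0.07 on the average, against 0.01 to 0.02 over all tested genes. With the replicate block 32, 29, 32 and 32 members were called at 0, 1, 3 and 6 h, where 38.8%, 37.8%, 40.4% and 41.5% of all tested genes were. With a median shift in place of quantile normalization the 0 h calls split into 11 lower and 5 higher.

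These counts fell when single arrays were left out. The count was 9 without control shRNA 0 h replicate 1, 8 without control shRNA 1 h replicate 1, 10 without c-Fos shRNA 3 h replicate 1 and 11 without control shRNA 3 h replicate 1. At 6 h it was 13 without c-Fos shRNA 6 h replicate 1, c-Fos shRNA 6 h replicate 2 or control shRNA 6 h replicate 1. The 18S ribosomal RNA control probe set also differed between the arms, with 4241 ± 241 in c-Fos shRNA arrays and 5126 ± 279 in control shRNA arrays (SD, n = 8 each, ranges 3839 to 4558 and 4805 to 5602), and its part in these results was not tested.

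A set of 9 members was called lower with c-Fos shRNA at all 4 times, where 4.97% of tested genes were, and Mrps33 was called higher at all 4, where 6.48% were. Mrpl18, the counterpart of bacterial L18, had 908 and 875 with c-Fos shRNA against 2504 and 2246 with control shRNA at 0 h, and 822 and 852 with c-Fos shRNA against 1850 and 1678 with control shRNA at 6 h. No c-Fos shRNA array of the 8 reached any control shRNA array. The differences were −1.42, −1.27, −1.39 and −1.04 at 0, 1, 3 and 6 h (SE 0.09, adjusted p from 1.35e-06 to 1.44e-05), and −1.28 ± 0.05 on the average (adjusted p = 1.05e-09, 2.43-fold lower). Mrpl55, a mitochondria-specific large-subunit protein, had 415 and 507 with c-Fos shRNA against 1001 and 1048 with control shRNA at 0 h. At 6 h it had 199 and 326 with c-Fos shRNA against 676 and 699 with control shRNA. Its arms did not overlap at any time either. Its differences were −1.16, −1.14, −1.67 and −1.38 (SE 0.17), and −1.34 ± 0.09 on the average (adjusted p = 9.68e-08, 2.53-fold lower).

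Mrpl37 and Mrpl13 were the other members lower by more than 0.5 on the average. Mrpl37, a mitochondria-specific large-subunit protein, had 1045 and 1121 with c-Fos shRNA against 1846 and 1940 with control shRNA at 0 h, and 914 and 1131 with c-Fos shRNA against 1846 and 1858 with control shRNA at 6 h. It differed by −0.80 ± 0.06 on the average (adjusted p = 1.86e-07, 1.74-fold lower) and was called in no KCl comparison. Mrpl13, the counterpart of bacterial L13, had 1576 and 1717 with c-Fos shRNA against 2389 and 2311 with control shRNA at 0 h, and 1570 and 1596 with c-Fos shRNA against 2828 and 2599 with control shRNA at 6 h. It differed by −0.61 ± 0.03 on the average (adjusted p = 2.27e-08, 1.53-fold lower). Mrps18c had 2233 and 2263 with c-Fos shRNA against 3379 and 3461 with control shRNA at 6 h, the arrays being apart (−0.56, adjusted p = 6.3e-05). With it, the other 5 called lower at all 4 times were Mrps25, Mrps18c, Mrpl32, Mrps15 and Mrpl3, with averages of −0.44, −0.38, −0.34, −0.34 and −0.24. The calls of Mrpl18, Mrpl55, Mrpl37, Mrpl13 and Mrps33 held at each time under every alternative run. All of these but Mrpl13 have 1 probe set, so the mean of a gene's probe sets could not test them. The call of Mrps18c at 0 h was lost without c-Fos shRNA 0 h replicate 1 or control shRNA 0 h replicate 1. Mrps25, Mrps15 and Mrpl3 lost their calls at all 4 times under the mean of a gene's probe sets, which gave Mrps25 −0.12 on the average (adjusted p = 0.207) and Mrpl3 −0.11, still called. Mrpl32 lost its call at 0 h without c-Fos shRNA 0 h replicate 2 or control shRNA 0 h replicate 1 and at 1 h without control shRNA 1 h replicate 1, and Mrps25 at 0 h without control shRNA 0 h replicate 1. Mrps15 lost it at 1 h without c-Fos shRNA 1 h replicate 2 or control shRNA 1 h replicate 1, and at 3 h without replicate 1 of either arm. Mrpl3 lost it at 0 h without any 1 array, at 1 h without c-Fos shRNA 1 h replicate 1 or either control shRNA 1 h array, and at 3 h without replicate 1 of either arm.

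Mrps33, a small-subunit protein found only in mitochondria, had 3984 and 4262 with c-Fos shRNA against 2067 and 2501 with control shRNA at 0 h, and 3805 and 4136 with c-Fos shRNA against 1484 and 1968 with control shRNA at 6 h. Every c-Fos shRNA array was above every control shRNA array. The differences were 0.85, 0.94, 0.96 and 1.20 (SE 0.15), and 0.99 ± 0.07 on the average (adjusted p = 3.65e-07, 1.98-fold higher). Mrpl54 was higher with c-Fos shRNA at 0 h, with 808 and 853 against 668 and 647 with control shRNA (0.33, adjusted p = 0.00951), and at 1 h by 0.26 (adjusted p = 0.0361). Its differences at 3 and 6 h were 0.18 and 0.00, neither called. The Mrpl54 call at 0 h was lost without c-Fos shRNA 0 h replicate 1 or control shRNA 0 h replicate 2, and that at 1 h without any 1 of the 4 arrays. Both were lost under the mean of its probe sets, which takes in a set too dim to be tested.

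Some differences were called at part of the times. Mrps31 had 1397 and 1208 with c-Fos shRNA against 2092 and 2077 with control shRNA at 1 h, and 744 and 851 with c-Fos shRNA against 1243 and 1151 with control shRNA at 3 h. It differed by −0.67 (adjusted p = 0.000534) at 1 h and −0.56 (adjusted p = 0.00149) at 3 h, and by −0.30 at 0 h and −0.28 at 6 h, neither called. Averaged with a second, dim probe set of Mrps31 the values were −0.39 (adjusted p = 0.0421) at 1 h and −0.18 (adjusted p = 0.356) at 3 h, which ended the 3 h call. Mrps30, a mitochondria-specific subunit, had 971 and 1114 with c-Fos shRNA against 1454 and 1343 with control shRNA at 0 h, a difference of −0.44 (adjusted p = 0.00405). In all, 26 members were called lower at 1 or more times and 6 higher, where 17.7% and 19.7% of tested genes were (37.1% called at least once), 0 were called both ways, and 44 were called at no single time. The 6 were Mrpl33 (0.23 at 0 h), Mrpl39 (0.30 at 6 h), Mrpl52 (0.17 at 3 and at 6 h), Mrps17 (0.19 at 6 h), Mrpl54 and Mrps33. The calls of Mrpl33 and Mrpl52 were lost under the mean of a gene's probe sets, and those of Mrpl33, Mrpl52 and Mrps17 were each lost without 1 of at least 3 of the 4 arrays compared. The mean of a gene's probe sets included sets of Mrpl33 (mean intensity 7.4) and Mrpl52 (32) that were too dim to be tested. On the average over times, Mrpl9 (0.23) and Mrps34 (0.14) were also among the members called higher.

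**Figure D4:**
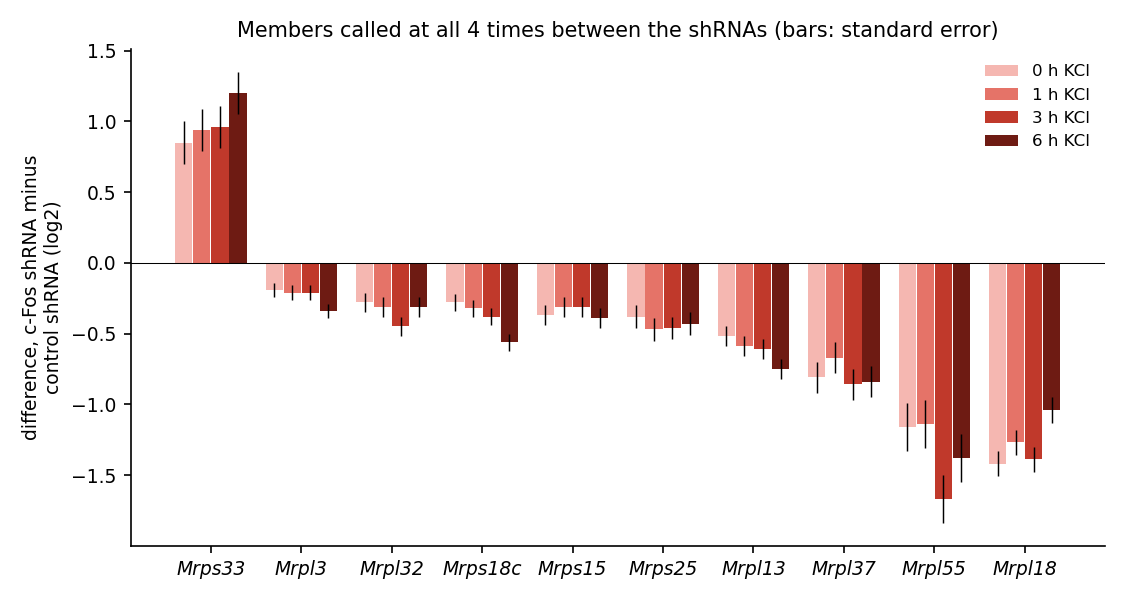
Difference in log2 level, c-Fos shRNA minus control shRNA (y axis), at 0, 1, 3 and 6 h of KCl (bars from light to dark, with standard errors) for the 10 members called in the same direction at all 4 times (x axis). Mrps33 lies above 0 at every time, and Mrpl18 and Mrpl55 lie below −1 at every time.

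The interaction asks whether the KCl change itself differed between the arms, and is given as c-Fos shRNA minus control shRNA. Of the 76 members 0 were called at 1 h, 0 at 3 h and 1 at 6 h by limma, with 2, 2 and 11 at an unadjusted p under 0.05. Of all tested genes 0.0431%, 0.402% and 1.24% were called. These shares are at the adjusted threshold and cannot be set against the unadjusted counts. Mrpl39, a mitochondria-specific large-subunit protein, had 4411 and 4580 at 6 h against 3888 and 4132 at 0 h with c-Fos shRNA, and 3539 and 3944 at 6 h against 4075 and 4495 at 0 h with control shRNA. The 6 h arrays were above the 0 h arrays with c-Fos shRNA and below them with control shRNA, by 0.16 (adjusted p = 0.0565, not called) and −0.24 (adjusted p = 0.00536). The interaction was 0.40 ± 0.08 (adjusted p = 0.0468). A second probe set gave an interaction of 0.41 (adjusted p = 0.162). The call was lost without any 1 of 7 of the 8 arrays compared, and it was kept only without control shRNA 6 h replicate 2.

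With the replicate number as a block 9 members were called at 6 h, where 11.4% of tested genes were. The 5 positive interactions were Mrpl49 at 0.54, Mrpl44 at 0.41, Mrpl22 at 0.40, Mrpl39 at 0.40 and Mrpl18 at 0.38, and the 4 negative ones were Mrps28 at −0.43, Mrpl54 at −0.33, Mrpl24 at −0.32 and Mrps18c at −0.28. Without the block, the smallest p at 1 h belonged to Mrps31 (−0.37 ± 0.14) and Mrpl35 (0.27 ± 0.12), both with an adjusted p of 1. At 3 h it belonged to Mrpl44 (0.36 ± 0.11, adjusted p = 0.263) and Mrpl2 (−0.30 ± 0.13, adjusted p = 0.553).

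Each gene was read from its brightest probe set, and 39 members had 2 or more tested probe sets. In 4 of them probe sets were called in opposite directions in at least 1 comparison. Mrpl1 is read by 3 probe sets, with KCl changes at 6 h of −1.04 (adjusted p = 0.000116), 0.20 and 1.15 (adjusted p = 3.53e-05) with c-Fos shRNA and of −0.99, −0.21 and 0.82 with control shRNA. The middle value of each is the brightest probe set and was not called, so that Mrpl1 counts among the members without a KCl call. Mrpl35 had 0.27 from its brightest probe set and −0.69 (adjusted p = 0.000826) from a dimmer one with c-Fos shRNA at 6 h, and shRNA differences of −0.32 and 0.95 at 0 h. Mrpl3 had average shRNA differences of −0.24 and −0.24 from its brighter probe sets and 0.24 from a dim one. Mrpl15 had 0.99 from one probe set and −0.31 and −0.26 from others for 6 h against 3 h with control shRNA. By contrast the 4 probe sets of Mrpl44 gave −0.50, −0.59, −0.53 and −0.48 for 6 h of KCl with control shRNA. Mrpl10, Mrps16, Mrpl24, Mrpl18, Mrpl55, Mrpl37 and Mrps33 have 1 probe set each. The probe sets used for 13 members, among them Mrpl37, Mrpl44 and Mrps12, are of the Affymetrix types that can match related transcripts.

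Genes that act with the mitoribosome were read from 5 lists at 6 h. Then 24.9% of all tested genes were called lower and 16.1% higher with c-Fos shRNA. With control shRNA the shares were 27.3% and 16.7%. Of 4 mitoribosomal proteins with other names, 3 were called lower and 0 higher with c-Fos shRNA and 2 lower and 0 higher with control shRNA. Ptcd3, a pentatricopeptide protein of the small subunit, had 979 and 1074 at 6 h against 1931 and 2094 at 0 h with c-Fos shRNA, and 882 and 1003 at 6 h against 2221 and 2148 at 0 h with control shRNA. Its 6 h and 0 h arrays were far apart in both arms, with changes of −0.95 ± 0.07 (adjusted p = 6.84e-07) and −1.17 ± 0.07 (adjusted p = 9.26e-08). Chchd1 changed by −0.17 and −0.14, and Dap3 by −0.15 with c-Fos shRNA.

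Of 13 mitochondrial translation factors, 6 were called lower and 2 higher with c-Fos shRNA and 6 lower and 1 higher with control shRNA. Mtif2, the initiation factor that brings the first tRNA to the small subunit, had 498 and 514 at 6 h against 1129 and 1069 at 0 h with c-Fos shRNA, and 382 and 369 at 6 h against 810 and 810 at 0 h with control shRNA. Its changes were −1.06 ± 0.11 (adjusted p = 8.91e-06) and −1.01 ± 0.11 (adjusted p = 9.77e-06), with arrays far apart. Mrrf and Gfm2, which together split the ribosome after termination, changed by −0.92 and −0.77 with c-Fos shRNA and by −0.76 and −0.97 with control shRNA. The genes called higher, named after their values were seen, were Mtrf1l, a release factor, by 0.42 and 0.54, and Gfm1, an elongation factor, by 0.22 with c-Fos shRNA.

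Of 22 assembly factors, 12 were called lower and 1 higher with c-Fos shRNA, with a median of −0.43, and 14 lower and 1 higher with control shRNA, with a median of −0.53. Tfb1m, which dimethylates the small-subunit rRNA, had 121 and 160 at 6 h against 344 and 409 at 0 h with c-Fos shRNA, and 141 and 175 at 6 h against 364 and 373 at 0 h with control shRNA. Its changes were −1.29 ± 0.13 (adjusted p = 9.43e-06) and −1.10 ± 0.13 (adjusted p = 2.81e-05). Mtg1, a GTPase of large-subunit assembly, changed by −1.38 with c-Fos shRNA. Gtpbp10, another such GTPase, changed by −1.15 and Mrm2, which methylates the large-subunit rRNA, by −1.30 with control shRNA. The gene called higher, named after its value was seen, was Malsu1, which binds the large subunit during assembly, by 0.27 and 0.42.

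Of 19 genes for mitochondrial aminoacyl-tRNA synthesis, which charge the tRNAs the mitoribosome reads, 9 were called lower and 2 higher with c-Fos shRNA and 11 lower and 2 higher with control shRNA. Rars2, the mitochondrial arginyl-tRNA synthetase, had 230 and 298 at 6 h against 1039 and 1161 at 0 h with c-Fos shRNA, and 143 and 207 at 6 h against 876 and 934 at 0 h with control shRNA. Its arrays did not come near each other, and its changes were −1.97 ± 0.16 (adjusted p = 1.95e-06) and −2.27 ± 0.16 (adjusted p = 4.98e-07). Pars2, the prolyl enzyme, changed by −1.21 and −1.16. Mars2, the methionyl enzyme, and Nars2, the asparaginyl enzyme, both named after their values were seen, were called higher, by 0.87 and 0.59 with c-Fos shRNA and by 0.73 and 0.24 with control shRNA.

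Of 12 genes for mitochondrial transcription and biogenesis, 4 were called lower and 2 higher with c-Fos shRNA and 5 lower and 2 higher with control shRNA. Nrf1, which encodes the nuclear respiratory factor whose letters were searched above, had 575 and 579 at 6 h against 147 and 140 at 0 h with c-Fos shRNA, and 789 and 944 at 6 h against 145 and 135 at 0 h with control shRNA. It rose by 1.94 ± 0.16 (adjusted p = 1.61e-06) with c-Fos shRNA and by 2.58 ± 0.16 (adjusted p = 1.25e-07) with control shRNA. Mterf1a, a mitochondrial transcription termination factor, changed by −0.95 and −1.22, and Tfb2m, which opens mitochondrial promoters, by −1.26 with control shRNA.

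**Figure D5:**
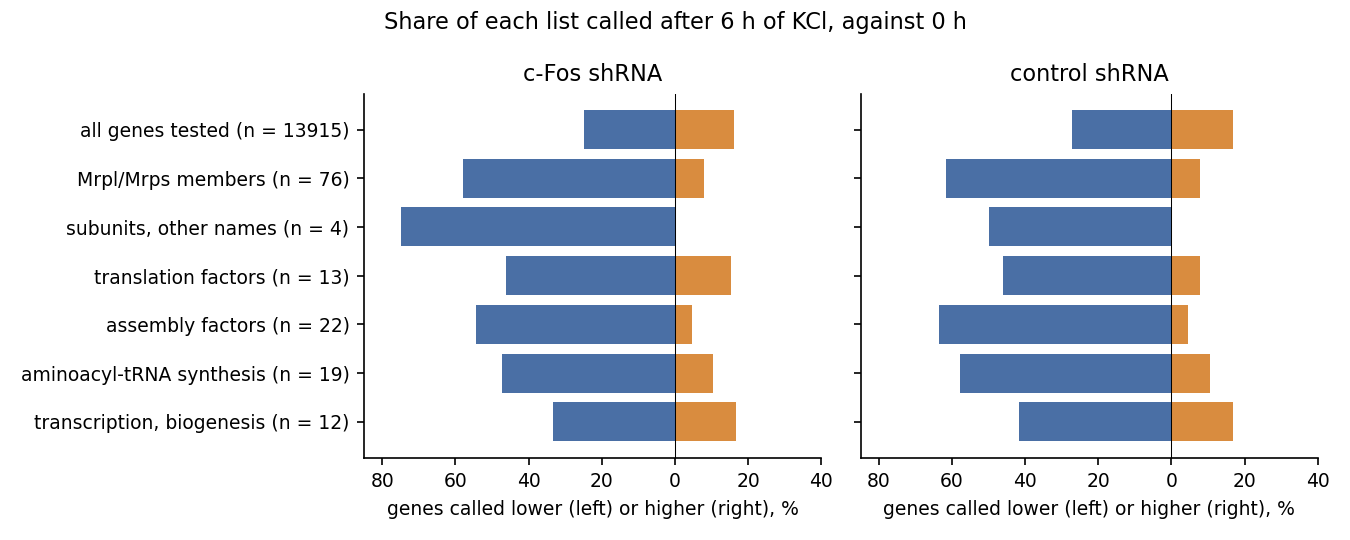
Share of genes called lower (bars to the left) or higher (bars to the right) after 6 h of KCl against 0 h, in percent (x axis), for all tested genes, the 76 members and the 5 lists of mitochondrial genes (y axis, with the number tested), with c-Fos shRNA in the left panel and control shRNA in the right. The members' bars reach 57.9% lower with c-Fos shRNA and 61.8% lower with control shRNA, where all tested genes reach 24.9% and 27.3%.

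Between the shRNAs, averaged over times, the same lists were called in both directions. On that average 25.2% of all tested genes were called higher and 22.7% lower. The assembly factors had 7 of 22 called higher with c-Fos shRNA and 3 lower, with Nsun4 at 1.18, Rpusd4 at 1.08 and Mpv17l2 at 0.90. The aminoacyl-tRNA genes had 4 higher and 5 lower, the translation factors 2 higher and 3 lower, the transcription and biogenesis genes 1 higher and 5 lower, and the subunits with other names 0 higher and 2 lower.

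Markers of the cell types that such cultures can hold were read as a check of the label. The summed intensity of 10 neuron markers ran from 68163 to 69824 at 6 h against 56474 to 61117 at 0 h with c-Fos shRNA, and from 65579 to 70079 at 6 h against 58872 to 63240 at 0 h with control shRNA. At 6 h 5 of the 10 were called higher and 1 lower with c-Fos shRNA, and 4 higher and 1 lower with control shRNA. The shares of all tested genes were 16.1% higher and 24.9% lower with c-Fos shRNA. With control shRNA they were 16.7% and 27.3%. The sum of 7 astrocyte markers ran from 19211 to 22764 at 6 h against 22702 to 27669 at 0 h with c-Fos shRNA, and from 21184 to 24553 at 6 h against 25258 to 30237 at 0 h with control shRNA, with 1 of 7 called lower in each arm. With the replicate block 6 of the 7 were called lower in the c-Fos shRNA arm and all 7 in the control shRNA arm, where 33.3% and 35.2% of all tested genes were. Of 7 microglia markers 2 were bright enough to test, and the sum of all 7 ran from 323 to 373 at 6 h against 344 to 355 at 0 h with c-Fos shRNA, and from 326 to 353 at 6 h against 317 to 346 at 0 h with control shRNA. None of 6 oligodendrocyte-lineage and 4 vascular markers tested was called at 6 h in either arm by limma, with 0 at an unadjusted p under 0.05. With the replicate block Col1a2, a collagen of fibroblasts, was called higher in both arms (0.41 in each), and Mbp, a myelin protein, with control shRNA (0.49, adjusted p = 0.0022). Of 6 progenitor markers, 2 were called lower and 1 higher with c-Fos shRNA and 1 lower and 1 higher with control shRNA. The block gave 3 lower and 2 higher in the c-Fos shRNA arm and 2 of each in the control shRNA arm. The part of these markers in the members' changes was not tested.

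Markers also differed between the shRNAs on the average over times. On that average 25.2% of all tested genes were called higher and 22.7% lower. With the block the shares were 31.9% and 28.5%. Of the 10 neuron markers 4 were called higher and 3 lower with c-Fos shRNA, of 7 astrocyte markers 1 and 2, of 6 oligodendrocyte-lineage markers 0 and 1, and of 6 progenitor markers 0 and 3. None of the 2 microglia and 4 vascular markers tested was called by limma, with 0 at an unadjusted p under 0.05, while the block called 1 vascular marker higher and 1 lower. The block gave 2 higher progenitor markers in place of 0, and added Olig2 of the oligodendrocyte lineage as higher (0.24). The summed intensity over the arrays of an arm ran from 56474 to 69824 with c-Fos shRNA against 58872 to 70079 with control shRNA for neurons, and from 19211 to 27669 against 21184 to 30237 for astrocytes. For progenitors it ran from 8123 to 11496 with c-Fos shRNA against 8664 to 11506 with control shRNA, and for the oligodendrocyte lineage from 10438 to 16359 against 9179 to 17570. The arms overlapped in all 4 sums. The 3 markers named next were all called lower, while 4 of 10 neuron markers and 1 of 7 astrocyte markers were called higher. Rbfox3, the neuronal splicing factor known as NeuN, ran from 3590 to 4829 with c-Fos shRNA against 6491 to 7841 with control shRNA, with no overlap (−0.74 ± 0.06, adjusted p = 7e-07). Hes5, a Notch target of neural progenitors, differed by −0.67 ± 0.06 (adjusted p = 1.24e-06), and Slc1a2, the glutamate transporter of astrocytes, by −0.41 ± 0.09 (adjusted p = 0.00219), its arms overlapping at 3076 to 4672 with c-Fos shRNA against 4505 to 6431 with control shRNA. Their part in the differences of the members between the shRNAs was not tested.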

How the data were processed

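The authors deposited 1 linear intensity per probe set and array, made with Affymetrix processing per the labels. Which software summarized the probes, and how it scaled them, is not given in the sources used here. Medians per array were 104.75 to 118.56. In R 4.3.3, log2(intensity + 16) was quantile normalized, a gene was represented by its brightest probe set with 1 assigned gene, and those with a mean log2 level over 5.786, the 30th percentile of all probe sets, were tested. limma 3.58.1 fitted the 8 group means over 16 arrays with 8 residual degrees of freedom, and calls used a Benjamini-Hochberg adjusted p under 0.05 over all 13915 genes. The fit was tested on simulated data. No detection calls were analysed.

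All 76 members matched RefSeq symbols, and promoters came from RefSeq on GRCm38.p6. Members and lists were chosen with earlier results of these data known. The rule gave array values to Fos and up to 5 called members per comparison with the largest change each way whose arrays do not overlap, and otherwise changes are given. Where an interaction had no call, the 2 members of smallest p are named, as are members with opposite probe sets and up to 3 called genes per list.

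The replicate numbers come from the array titles. The difference between replicate 1 and replicate 2 correlated across genes at 0.36 to 0.60 between groups (median 0.48), over 0.1 in all 28 pairs of groups, so the numbers were taken to pair the arrays. The values reported use no block unless it is named, so members not called here can be called with the block. Alternatives were no quantile normalization, a median shift, a pseudocount of 1, no filter, the mean of a gene's probe sets, the replicate block and leaving out each array. The mean of a gene's probe sets also took in sets too dim to be tested. The block was applied to the marker lists after the data were seen. The number of arrays limits the precision.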

Additional observations from a re-analysis of the deposited data

Results flagged for a closer look

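The change of Mrpl39 after 6 h of KCl differed between the shRNAs by a test of the difference itself. The interaction was 0.40 on the log2 scale, with both 6 h arrays above both 0 h arrays with c-Fos shRNA and both below them with control shRNA. It passed the threshold by little (limma adjusted p = 0.0468), passed it under 4 of 14 alternatives and lost it under 10. Mrpl39 was the 1 call among the 76 members, where 1.24% of all tested genes were called for this interaction. The share of members called was thus close to that of all tested genes.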

How the results depend on the processing

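Counts here are of members called. The counts for KCl at 3 and 6 h, for the average between the shRNAs and for 6 h against 3 h with control shRNA stayed within 1.5 times under every alternative that kept all arrays. For KCl at 1 h the count was 1 with c-Fos shRNA (2 in the report) without quantile normalization, with a median shift and without the filter. With control shRNA (1 in the report) it was 0 without quantile normalization and with a median shift, 3 with the mean of a gene's probe sets and 4 with the replicate block. Between the shRNAs the mean of a gene's probe sets gave 10, 11 and 12 at 0, 3 and 6 h, and the replicate block gave 32, 29, 32 and 32 at 0, 1, 3 and 6 h. The interaction at 6 h had 0 without quantile normalization, with a median shift and without the filter, and 9 with the replicate block, which gave 38 for 6 h against 3 h with c-Fos shRNA and otherwise moved no count by over 1.5 times and ended no call. Leaving out 1 array gave, for KCl at 1, 3 and 6 h, 0 to 1, 22 to 30 and 41 to 43 with c-Fos shRNA and 0, 21 to 28 and 44 to 49 with control shRNA. It gave 9 to 15, 8 to 12, 10 to 17 and 13 to 14 between the shRNAs at 0, 1, 3 and 6 h, 36 to 43 on the average, 0 to 1 for the interaction at 6 h, and 8 to 14 with c-Fos shRNA and 13 to 16 with control shRNA for 6 h against 3 h. Fewer arrays leave fewer degrees of freedom. The runs without 1 array used no block, so replicate numbers were no longer matched between the groups compared. Of the genes named, the direction turned under the mean of a gene's probe sets for Mrpl35 (−0.17) and Mrpl54 (−0.10) at 6 h of KCl with c-Fos shRNA, Mrps21 (−0.04) at 6 h with control shRNA and Mrps25 (0.01) between the shRNAs at 6 h. Their dimmer probe sets enter that mean, and that of Mrpl54 was too dim to be tested. Other values of named genes kept their direction and their side of the threshold in 1424 cases and lost the call in 136.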
